A study of Mus musculus with 69 samples.

Results

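For each gene, the 24 h response to nephrectomy in the cortical collecting duct (CCD) was set against that in the S1 segment of the proximal tubule (PT-S1). The response was the mean log2(TPM + 1) after unilateral nephrectomy (UNx) minus that after a sham operation, and the difference was the CCD response minus the PT-S1 response. TPM is a length-scaled transcript abundance that adds up to the same total in each library. The comparison used 32 of the 69 libraries and 10988 of the 55487 genes listed, namely those averaging 1 TPM or more in each of the 24 h tables. All groups were wild-type (WT) male C57BL/6 mice from Taconic, 7 weeks old per the labels, and tubules dissected from the kidney were the tissue. In PT-S1 there were 3 sham animals with 8 libraries and 4 UNx animals with 9 libraries. In CCD there were 4 sham animals with 8 libraries and 3 UNx animals with 7 libraries. Animals were told apart by the number that follows the operation's name in the labels, and an animal's libraries were averaged on the log2 scale, so n is the number of animals.

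After a kidney is removed, the remaining kidney grows and its nephrons each filter and transport more. PT-S1 cells take up most of the filtered glucose, amino acids, phosphate and protein and run on fatty acid oxidation, whereas the collecting duct holds principal cells, which move water, sodium and potassium, and intercalated cells, which move acid and base. A gene whose difference is above 0 changed more upward, or less downward, in CCD than in PT-S1.

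The segment labels were checked against markers. The PT-S1 animals had 789 to 3234 TPM of Slc5a2, which reabsorbs filtered glucose, and the CCD animals at most 2.45 TPM. Aqp2, the vasopressin-regulated water channel of principal cells, was at 10211 to 48271 TPM in CCD and at most 0.232 TPM in PT-S1. Genes at 1 TPM or more numbered 10942 to 12318 in the PT-S1 libraries and 12992 to 13957 in the CCD libraries. The depth is unknown, because TPM keeps none.

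Several libraries stood apart. In PT-S1, 1 library of sham animal 1 and 1 of sham animal 3 had median correlations of 0.824 and 0.904 with the other libraries of their table, against 0.946 to 0.972 for the rest. PT-S1 UNx animal 3 had the lowest Slc5a2 of its group, at 789 TPM, where the rest had 2230 to 2510 TPM. In CCD, a set of 3 libraries, the one numbered first in the table's header for each UNx animal, differed from the other 4 UNx libraries: 51 of the 10988 genes tested were higher in all 3 of them, and 42 lower, by a gap of more than 0.5 on the log2(TPM + 1) scale. Every CCD UNx animal mean held 1 such library, and 7 of the 15 genes that differed between segments were among these genes. Results are therefore given with and without these 3 libraries, a choice made after seeing the data.

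In the fit with all libraries, 15 of 10988 genes (0.137%) differed between segments at an adjusted p under 0.05 (limma, two-sided, Benjamini-Hochberg over all genes tested). The difference was above 0 for 13 and below 0 for 2, and the smallest adjusted p was 0.0362. Over all genes the median difference was 0.13 on the log2 scale, from median responses of -0.19 in PT-S1 and -0.03 in CCD. At an unadjusted p under 0.05 there were 1317 genes above 0 (12%) and 378 below 0 (3.44%), so 77.7% lay above. That split moved with scaling: 51.5% lay above 0 after quantile normalization, 44.5% after median-ratio scaling and 34.4% after each segment's responses were centred on their median. Among the genes past the adjusted threshold, 15 of 24 were above 0 after quantile normalization and 14 of 21 after median-ratio scaling, and none passed after centring.

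**Figure D1:**
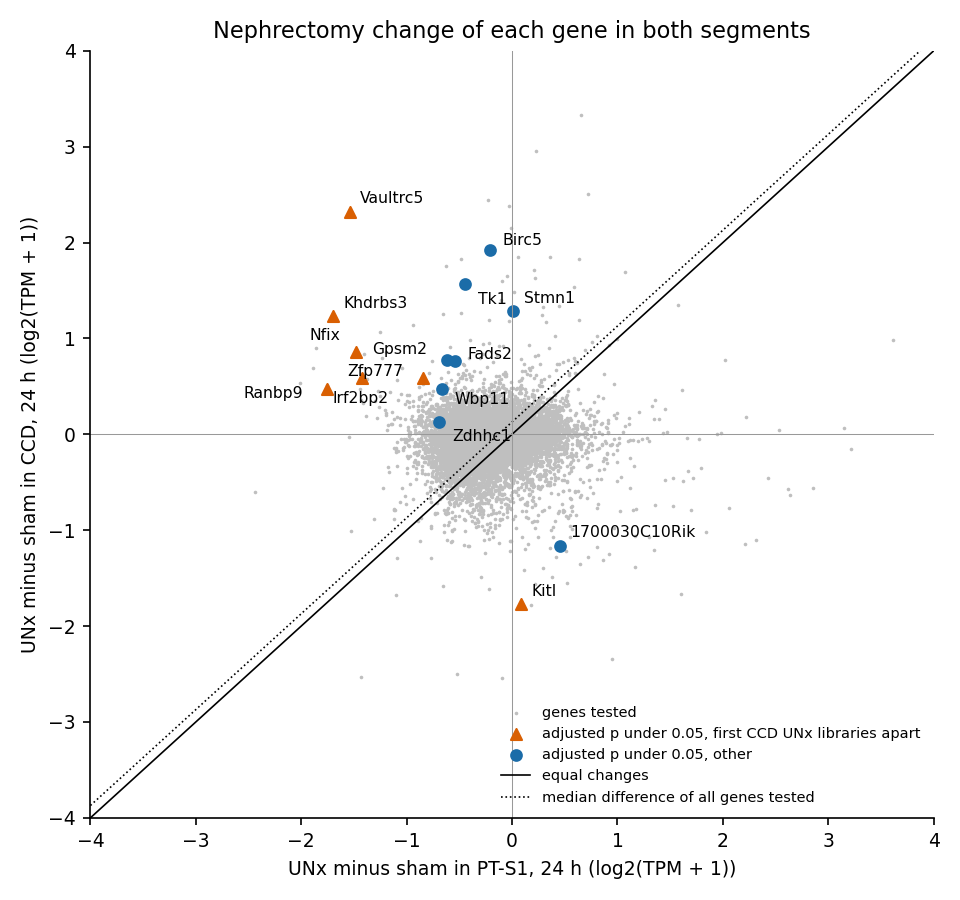
Each point is a gene tested at 24 h, with its UNx minus sham change in PT-S1 on the x axis and in CCD on the y axis, both in log2(TPM + 1). The solid line marks equal changes and the dotted line the median difference of 0.13; the 15 genes with an adjusted p under 0.05 are named, 13 of them above the lines and 2 below, with triangles for the 7 genes in which the first-numbered CCD UNx libraries stood apart.

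Of the 15 genes, 7 also passed without the 3 first-numbered CCD UNx libraries, in a fit that again called 15 genes. They were Tk1, Birc5, Fads2, Wbp11, Zdhhc1, Gpsm2 and 1700030C10Rik. Tk1 and Birc5 are members of the cell cycle list. Stmn1 had nearly the same difference in both fits and an adjusted p of 0.0585 without those libraries.

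Tk1 encodes thymidine kinase 1, which makes thymidine monophosphate for DNA synthesis. Its animal means, back-transformed from log2(TPM + 1), were 16.9, 22.5 and 18.6 TPM in PT-S1 sham and 14.6, 12.7, 14.9 and 13.3 TPM in PT-S1 UNx. In CCD they were 2.62, 5.35, 2.29 and 4.38 TPM in sham and 8.48, 16.7 and 13.2 TPM in UNx. Sham and UNx did not overlap in either segment, and the order was opposite, with UNx below sham in PT-S1 and above it in CCD. The difference was 2.02 (SE 0.33, limma adjusted p = 0.0366), from -0.45 in PT-S1 and 1.57 in CCD. Without the first-numbered CCD UNx libraries it was 1.98 (limma adjusted p = 0.0474).

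Birc5 encodes survivin, a subunit of the chromosomal passenger complex in mitosis. The level was low in PT-S1, 0.933, 1.37 and 1.7 TPM in sham and 0.575, 1.42, 0.734 and 1.43 TPM in UNx. In CCD it was 2.56, 5.54, 2.99 and 4.65 TPM in sham and 12.3, 23.9 and 17.2 TPM in UNx. The PT-S1 groups overlapped, whereas all CCD UNx animals were above all CCD sham animals. The difference was 2.13 (SE 0.37, limma adjusted p = 0.0372) with all libraries and 2.14 (limma adjusted p = 0.0481) without the 3.

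Stmn1 encodes stathmin, which destabilizes microtubules and is abundant in dividing cells. PT-S1 held 26.8, 28.2 and 26.9 TPM in sham and 23.2, 26.1, 26.4 and 35.7 TPM in UNx, and CCD 19.5, 24.9, 21.7 and 21.2 TPM in sham and 46.4, 67.3 and 51.8 TPM in UNx. All 3 CCD UNx animals were the highest of the 14 segment animals. The difference was 1.27 (SE 0.22, limma adjusted p = 0.0372), nearly all of it from CCD (1.29, against 0.01 in PT-S1).

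Fads2, the delta-6 desaturase of polyunsaturated fatty acid synthesis, differed by 1.31 (SE 0.21, limma adjusted p = 0.0366). Its levels were 188, 165 and 124 TPM in PT-S1 sham and 119, 108, 93.9 and 109 TPM in PT-S1 UNx. In CCD they were 3.15, 4.17, 3.19 and 4.06 TPM in sham and 6.44, 6.37 and 7.79 TPM in UNx. The groups did not overlap in either segment and their order was opposite.

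Wbp11, a splicing factor, differed by 1.13 (SE 0.20, limma adjusted p = 0.0387). PT-S1 levels were 23.9, 14.6 and 17.2 TPM in sham and 10.9, 11.9, 10.4 and 11.4 TPM in UNx, and CCD levels 34.9, 32.5, 39.1 and 37.3 TPM in sham and 50.6, 49.8 and 49.6 TPM in UNx. Zdhhc1, a palmitoyltransferase, differed by 0.82 (SE 0.14, limma adjusted p = 0.0387). PT-S1 sham held 20.2, 19.3 and 17.8 TPM of it, PT-S1 UNx 10.7, 12.3, 10.5 and 12.4 TPM, CCD sham 114, 120, 111 and 116 TPM and CCD UNx 125, 134 and 118 TPM. For Zdhhc1 the CCD groups overlapped, and most of the difference came from PT-S1 (-0.69, against 0.13 in CCD).

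Gpsm2, which orients the mitotic spindle, Khdrbs3, an RNA-binding splicing regulator, and 1700030C10Rik stayed below 10 TPM in every group mean or carry a provisional name, fell outside the rule for naming and were named after their values were seen. Gpsm2 differed by 1.39 (SE 0.24, limma adjusted p = 0.0372), with CCD libraries at 1.45 to 2.56 TPM in sham and 2.51 to 5.58 TPM in UNx. 1700030C10Rik differed by -1.62 (SE 0.28, limma adjusted p = 0.0383), with CCD libraries at 1.72 to 4.08 TPM in sham and 0.52 to 1.75 TPM in UNx. Over all libraries Gpsm2 averaged 7.20 TPM in PT-S1 and 2.78 TPM in CCD, and 1700030C10Rik 1.24 and 2.12 TPM. The PT-S1 changes of both genes enter their differences and are not given here, so the CCD ranges are not the whole of them.

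The other 7 genes were Vaultrc5, Khdrbs3, Nfix, Ranbp9, Irf2bp2, Zfp777 and Kitl. In each, all 3 first-numbered CCD UNx libraries lay apart from the other 4, and none passed without them, with limma adjusted p values from 0.0672 for Nfix to 0.179 for Vaultrc5. Their differences kept their sign. The 7 were picked by that gap, so smaller differences without these libraries follow from the choice and are no test. What sets these libraries apart was not tested, and a library batch and misassigned columns of the table cannot be told apart with the labels, so the CCD levels of these 7 genes carry that doubt.

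Nfix, a nuclear factor I transcription factor, had animal means of 4.5, 9.14 and 5.86 TPM in PT-S1 sham and 1.22, 0.843, 1.77 and 3.01 TPM in PT-S1 UNx. In CCD they were 20.2, 15.1, 21.8 and 18.7 TPM in sham and 39, 39.2 and 27.4 TPM in UNx. By library, however, the first-numbered CCD UNx libraries held 67.4 to 79.0 TPM, the other CCD UNx libraries 15.2 to 22.5 TPM, and CCD sham 14.3 to 21.8 TPM. The other UNx libraries thus spanned nearly the range of sham. The difference was 2.34 (SE 0.36, limma adjusted p = 0.0362) with all libraries and 1.53 (SE 0.36, limma adjusted p = 0.0672) without the 3.

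Irf2bp2, a transcriptional corepressor, showed the same arrangement. PT-S1 animals had 26.3, 15 and 16.1 TPM in sham and 4.09, 6.11, 7.39 and 8.15 TPM in UNx. The first-numbered CCD UNx libraries had 51.9 to 72.8 TPM, the other CCD UNx libraries 16.4 to 18.6 TPM and CCD sham 18.1 to 25.9 TPM. The difference was 2.01 (SE 0.31, limma adjusted p = 0.0362) with all libraries and 1.21 (limma adjusted p = 0.0712) without the 3.

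Ranbp9, a scaffold protein that binds Ran, had 31.6, 21.7 and 14.6 TPM in PT-S1 sham and 4.75, 3.65, 6.07 and 9.55 TPM in PT-S1 UNx. Its first-numbered CCD UNx libraries had 21.7 to 28.5 TPM, the other CCD UNx libraries 5.25 to 7.37 TPM and CCD sham 5.23 to 12.7 TPM. The difference of 2.23 (SE 0.38, limma adjusted p = 0.0372) became 1.38 (limma adjusted p = 0.0895) without the 3. Zfp777, a zinc finger protein, went from 1.43 (SE 0.22, limma adjusted p = 0.0362) to 0.88 (limma adjusted p = 0.0743), and Khdrbs3 from 2.93 (SE 0.47, limma adjusted p = 0.0362) to 1.71 (limma adjusted p = 0.0999). In PT-S1, Ranbp9, Irf2bp2, Nfix, Zfp777 and Khdrbs3 had UNx animals below all sham animals, and that part of the difference does not use the CCD libraries.

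Kitl, which encodes stem cell factor, the ligand of the receptor Kit, was the larger in size of the 2 differences below 0 among the 15 genes. PT-S1 held 1.62, 1.45 and 1.26 TPM in sham and 1.47, 0.948, 3.41 and 1.12 TPM in UNx. In CCD the animals held 113, 114, 104 and 106 TPM in sham and 24.2, 30.7 and 41.5 TPM in UNx. Here the first-numbered CCD UNx libraries were at 13.0 to 26.7 TPM and the other UNx libraries at 44.5 to 58.2 TPM, and both sets were below every sham library, 88.1 to 144 TPM. The difference was -1.85 (SE 0.34, limma adjusted p = 0.0429) with all libraries and -1.17 (SE 0.31, limma adjusted p = 0.0811) without the 3.

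Vaultrc5, a short non-coding vault RNA, had the largest difference of the 15 genes, 3.86 (SE 0.62, limma adjusted p = 0.0362), on unstable values. In CCD sham it was listed at 0 in 7 of 8 libraries, in CCD UNx in 3 of 7, and in PT-S1 in 6 of 17. The first-numbered CCD UNx libraries held 14.8 to 73.5 TPM the other CCD UNx libraries at most 6.32 TPM, and the 1 sham library above 0 held 14.1 TPM. No fold is given against a group listed mostly at 0.

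**Figure D2:**
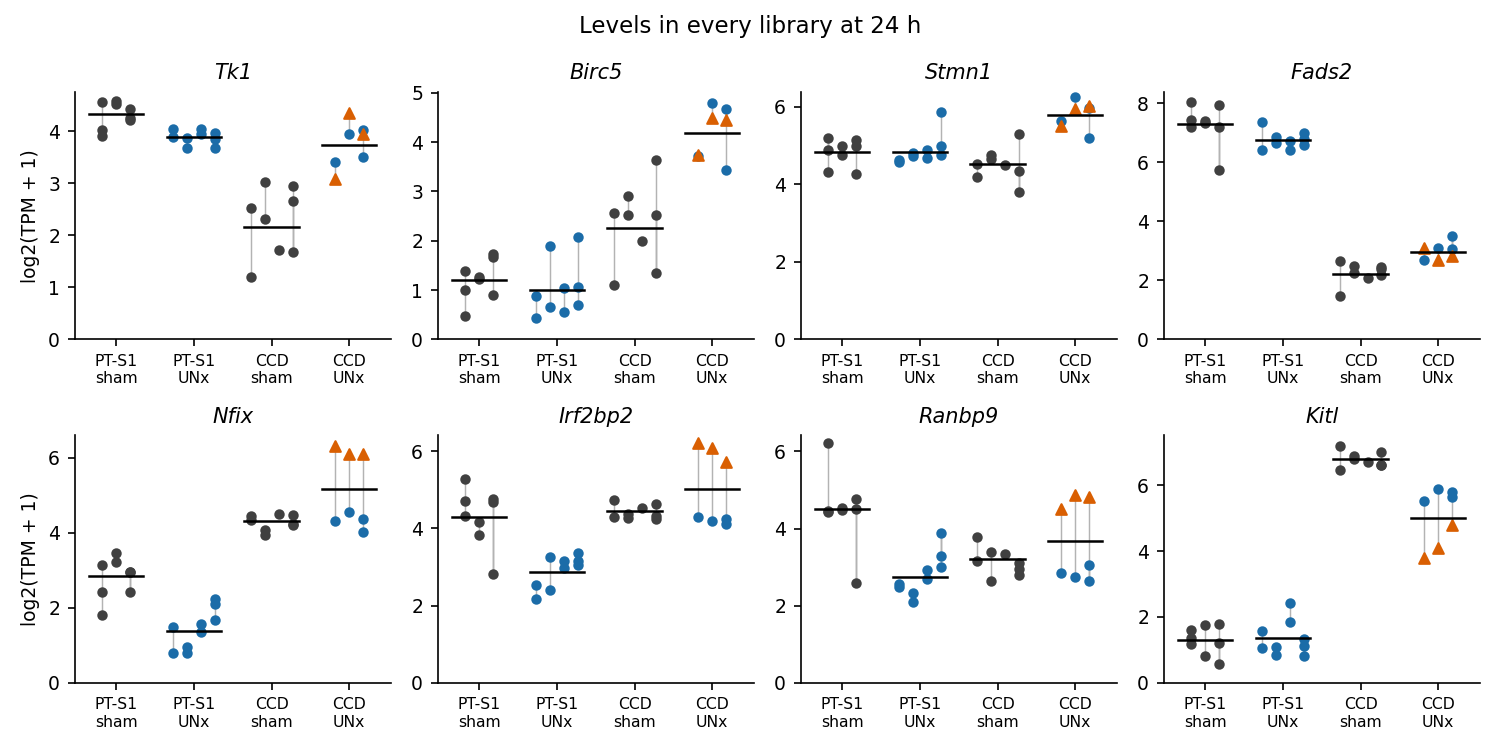
Level of 8 genes in every library at 24 h, in log2(TPM + 1) on the y axis, by segment and operation on the x axis; libraries of an animal share a vertical line, black bars are the means over animals, and triangles mark the first-numbered library of each CCD UNx animal. In the upper row (Tk1, Birc5, Stmn1, Fads2) the triangles overlap the range of the other CCD UNx libraries, and in the lower row (Nfix, Irf2bp2, Ranbp9, Kitl) all 3 lie apart from them.

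**Figure D3:**
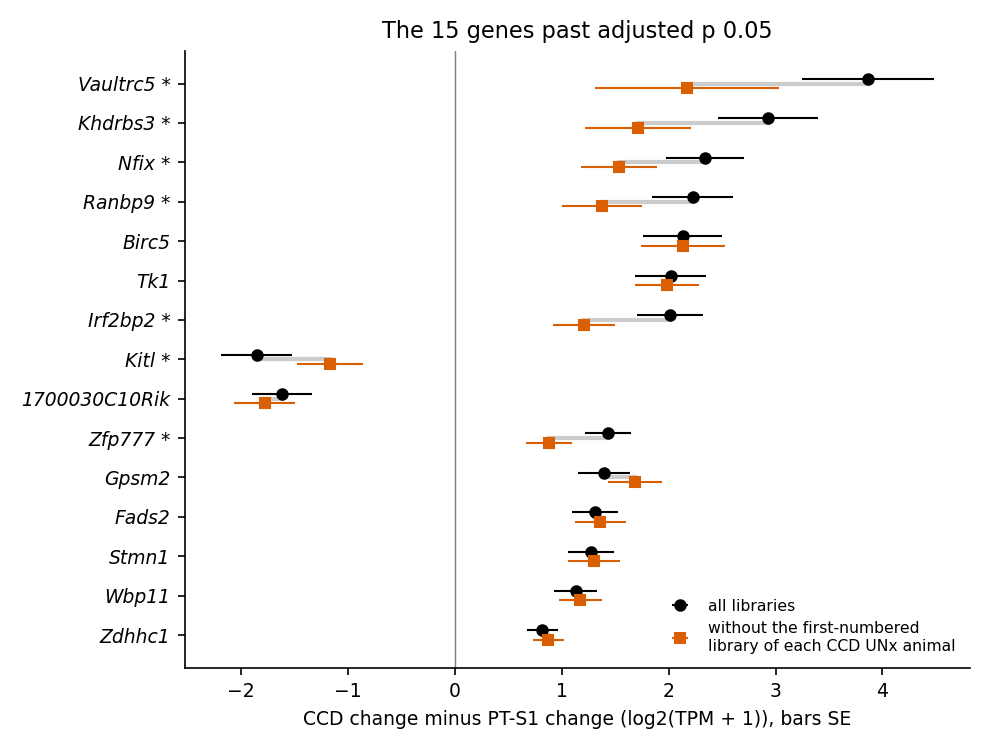
CCD change minus PT-S1 change of the 15 genes on the x axis, in log2(TPM + 1) with SE, with all libraries (circles) and without the first-numbered library of each CCD UNx animal (squares); an asterisk marks the 7 genes in which those libraries stood apart. The values of these 7 genes move toward 0, Kitl from -1.85 to -1.17, which follows from picking them by the gap of those libraries. Tk1, not picked so, had 2.02 and 1.98.

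The remaining genes named by their small p did not pass. Above 0, Cnnm3, a CNNM family protein linked to magnesium transport, differed by 2.26 (limma adjusted p = 0.0549), and its first-numbered CCD UNx libraries (14.6 to 22.6 TPM) again lay apart from the others (2.98 to 3.96 TPM). Below 0, Cdkn1b, the cyclin-dependent kinase inhibitor p27, differed by -1.39 (limma adjusted p = 0.0873). Its CCD animals had 15.9, 14.2, 10.4 and 12.5 TPM in sham and 3.29, 4.7 and 3.03 TPM in UNx, with no overlap, and its PT-S1 animals 0.553 to 1.56 TPM. Tubb2a, a beta-tubulin, differed by -1.19 (limma adjusted p = 0.0841), with 10.7, 16.5 and 11.8 TPM in PT-S1 sham, 29 to 38.2 TPM in PT-S1 UNx and overlapping CCD groups. Tubulin genes are near-identical in sequence, so its reads may be shared with its relatives.

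Further below 0 were Tmem176b (-0.97, limma adjusted p = 0.0972) and its neighbour Tmem176a (-0.98, limma adjusted p = 0.124), transmembrane proteins, Gt(ROSA)26Sor, a widely expressed non-coding locus (-0.88, limma adjusted p = 0.099), and Actb, beta-actin (-1.29, limma adjusted p = 0.124). Actb is often taken as a reference gene. Its animal means were 973, 1230 and 663 TPM in PT-S1 sham, 1049 to 1491 TPM in PT-S1 UNx, 4426 to 6081 TPM in CCD sham and 2812, 2297 and 4041 TPM in CCD UNx. The CCD groups did not overlap and the PT-S1 groups did. Actb has many processed copies in the genome.

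Sham and UNx animals did not overlap for 1684 of the 10988 genes in PT-S1 and for 1632 in CCD. Whether more genes were apart in both segments than 2 unrelated segments would give was not tested. Genes whose animals did not overlap between sham and UNx in both segments were counted by direction. The direction was opposite for 82 of 10988 genes (0.746%), 71 of them higher after UNx in CCD and lower in PT-S1 and 11 the reverse. It was the same for 149 genes (1.36%), 26 higher and 123 lower in both. Among those at 10 TPM or more in both segments, the 4 of smallest p up in CCD were Ranbp9, Irf2bp2, Wbp11 and Fam120a, an RNA-binding scaffold (1.65, limma adjusted p = 0.0549). Ranbp9, Irf2bp2 and Fam120a were among the genes with the first-numbered CCD UNx libraries apart. Fam120a held 20.9 to 33.3 TPM in those and 11.3 to 13.9 TPM in the other CCD UNx libraries. For Ranbp9 the other CCD UNx libraries (5.25 to 7.37 TPM) lay within the range of CCD sham (5.23 to 12.7 TPM). For Irf2bp2 they held 16.4 to 18.6 TPM, against 18.1 to 25.9 TPM in CCD sham, so neither rise was seen outside the first-numbered libraries. The counts by direction use all libraries and were not repeated without these. Those down in CCD and up in PT-S1 were Tmem176a, Dbi, the acyl-CoA binding protein (-0.87, limma adjusted p = 0.167), Emc6, of the membrane protein insertion complex (-0.43, limma adjusted p = 0.198), and H2-T23, a class I histocompatibility protein (-0.50, limma adjusted p = 0.20). In the last 3 the CCD change lay between -0.19 and -0.11, so the PT-S1 change was the larger part.

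The cell cycle list, genes of DNA replication and mitosis, had the median furthest above 0 of the lists with at least 10 members tested. Of its 46 members 23 were tested, 2 passed the adjusted threshold (Tk1, Birc5), and 8 were above 0 and 0 below at an unadjusted p under 0.05, against 12% and 3.44% of all genes. Its median difference was 0.43, against 0.13 over all genes, and 0.28, 0.25 and 0.27 after quantile normalization, median-ratio scaling and centring. Without the first-numbered CCD UNx libraries the median was 0.43 with 9 members above 0, against 1856 of 10987 over all genes. The members that were tested are those with 1 TPM in both segments, so they are not all cell cycle genes. When genes above 0 TPM in at least 3 animals were kept, all 46 were tested, 30 were above 0 and 0 below at an unadjusted p under 0.05, and the median was 0.99. Over all 23065 genes of that filter 1834 were above and 829 below, with a median of 0.03. The members it added averaged under 1 TPM in at least 1 segment, where changes in log2(TPM + 1) are held small.

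Beside Tk1 and Birc5 the 8 were Cdca8, borealin, which joins survivin in the passenger complex (1.51), Cdk1, the mitotic kinase (1.48), Cdc20, an activator of the anaphase-promoting complex (1.41), E2f1, a transcription factor of S phase (1.03), Rrm1, the large subunit of ribonucleotide reductase (0.57), and Cdk2, a kinase of S phase entry (0.41). Their limma adjusted p values lay between 0.105 for Cdca8 and 0.32 for Cdk2. In PT-S1 the mean levels of Birc5, Cdca8, Cdk1, Cdc20 and E2f1 were 1.26 to 2.59 TPM, near the filter. Summed markers of leukocytes overlapped between CCD sham (192 to 375 TPM) and CCD UNx (194 to 335 TPM), as did those of endothelium (99.8 to 229 and 133 to 353 TPM). Principal cell markers summed to 25080 to 50460 TPM in CCD sham and 48050 to 66800 TPM in CCD UNx. Most of that was Aqp2, with means of 22500 and 41140 TPM, and Aqp3 and Avpr2 also had higher means after UNx. Means were close or lower after UNx for Scnn1b (1065 and 1038 TPM), Scnn1g (1069 and 1078), Hsd11b2 (3298 and 3080) and Fxyd4 (5286 and 4885). Markers of the thick ascending limb reached 4244 TPM in 1 CCD sham animal and 224 TPM in CCD UNx. The part of these cell types in these differences was not tested. Fewer or more cells of a type and less or more RNA per cell cannot be told apart in these bulk samples.

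The promoters of these 8 genes were read from RefSeq (GRCm38.p6, while the deposited tables used GRCm39), 250 bases before the start. They were searched on both strands for the CCAAT box, bound by NF-Y (CCAAT), for the cell cycle homology region of genes expressed in mitosis (TTTGAA) and for 2 forms of the E2F site (TTTCCCGC and TTTGGCGC). CCAAT was in 5 of the 8 (62.5%), in 13 of the 19 tested cell cycle genes with an entry (68.4%) in 37.1% of the 8496 genes tested with an entry and in 34.5% of 27025 promoters. TTTGAA was in 2 of the 8 (25%), in 10.2% of the genes tested and in 16.3% of all. TTTCCCGC was in 1 of the 8 (12.5%), in 1.8% of the genes tested and in 0.929% of all. TTTGGCGC was in 0 of the 8, in 0.906% of the genes tested and in 0.437% of all. These are matches of letters, not sites shown to be bound. The windows of Tk1, Birc5 and E2f1 held none of the 4 motifs, and Cdca8 and Rrm1 held CCAAT only. The 3 with a TTTGAA or E2F match are printed 5′ to 3′ on the gene's strand with every match in capitals; ATTGG is CCAAT and GCGGGAAA is TTTCCCGC on the other strand, and no match overlaps another.
Cdc20 (chr4:118437344-118437593, minus strand): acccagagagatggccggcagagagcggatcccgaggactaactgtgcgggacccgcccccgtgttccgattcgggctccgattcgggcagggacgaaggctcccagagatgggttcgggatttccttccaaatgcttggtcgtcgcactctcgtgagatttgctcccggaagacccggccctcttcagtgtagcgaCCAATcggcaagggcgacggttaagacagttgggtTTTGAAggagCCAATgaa
Cdk1 (chr10:69352913-69353162, minus strand): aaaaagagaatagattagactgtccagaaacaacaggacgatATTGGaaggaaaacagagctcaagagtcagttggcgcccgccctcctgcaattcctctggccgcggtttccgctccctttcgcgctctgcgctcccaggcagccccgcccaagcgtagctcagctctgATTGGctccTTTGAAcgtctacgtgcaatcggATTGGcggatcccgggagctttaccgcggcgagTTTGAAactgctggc
Cdk2 (chr10:128705052-128705301, minus strand): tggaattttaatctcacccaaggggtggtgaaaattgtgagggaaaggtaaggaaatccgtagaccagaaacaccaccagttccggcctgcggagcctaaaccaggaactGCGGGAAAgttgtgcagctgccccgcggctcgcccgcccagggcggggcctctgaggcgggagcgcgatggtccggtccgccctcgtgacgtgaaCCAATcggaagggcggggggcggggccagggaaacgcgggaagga

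In Cdc20, TTTGAA began 18 bases before the start, between CCAAT matches at 53 and 8 bases. In Cdk1 the TTTGAA matches began at 71 and 15 bases and those of CCAAT at 208, 80 and 48 bases before the start. Cdk2 had the E2F match at 140 and CCAAT at 45 bases. Tk1 and Birc5 lie near each other on chromosome 11 with Afmid, kynurenine formamidase, between them, and Afmid differed by 0.74 (SE 0.26, limma adjusted p = 0.23).

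Fatty acid oxidation and PPAR-alpha targets stood on the other side. Of 43 members tested 0 passed the adjusted threshold, and 1 was above 0 and 13 below at an unadjusted p under 0.05, against 12% and 3.44% of all genes. The median difference was -0.35, and -0.34, -0.54 and -0.52 after quantile normalization, median-ratio scaling and centring. Without the 2 PT-S1 sham libraries of low correlation the median was -0.25 with 10 members below 0, and with first-numbered libraries only it was -0.17 with 3 below. Over all genes, 309 of 10945 and 333 of 11071 were below 0 in these settings.

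Eci1, an isomerase of beta-oxidation, had the smallest p of the list (-1.05, SE 0.22, limma adjusted p = 0.0841). It had 210, 269 and 312 TPM in PT-S1 sham, 510, 466, 655 and 407 TPM in PT-S1 UNx, 248 to 289 TPM in CCD sham and 241 to 252 TPM in CCD UNx. PT-S1 UNx animals were all above PT-S1 sham, and the CCD groups overlapped. The fatty acid omega-hydroxylases Cyp4a14 (-3.37), Cyp4a10 (-3.20) and Cyp4a31 (-2.17) were further below 0, with limma adjusted p values of 0.129 to 0.148. These are near-identical genes whose reads may be split, and their mean CCD levels were 2.14 to 8.02 TPM. Acads, short-chain acyl-CoA dehydrogenase, was the 1 member above 0 at an unadjusted p under 0.05 (0.79, limma adjusted p = 0.169).

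Over the list the median change in PT-S1 was 0.49 and in CCD 0.05. Single proximal tubule markers moved both ways in PT-S1. Among those of the first and second segments, Slc22a6 rose after UNx, from a mean of 325 to 729 TPM. The means of the others in that set fell. Every third-segment marker had a higher mean after UNx, though its sham and UNx animals overlapped. Summed markers of the first and second proximal segments were 13610 to 17500 TPM in PT-S1 sham and 9051 to 13960 TPM in PT-S1 UNx, and those of the third segment 24.8 to 125 and 13.3 to 319 TPM. The sums overlapped between sham and UNx for the first 2 segments, where the highest UNx sum (13960 TPM) was above the lowest sham sum (13610 TPM), and for the third. Their part in the list's differences was not tested. With each animal left out in turn the list's median ran from -0.44 to -0.25.

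Tubular injury genes had a median difference of -0.71, with 0 above 0 and 5 below at an unadjusted p under 0.05 of 15 tested, against 12% and 3.44% of all genes. The median was -0.40 without the PT-S1 libraries of low correlation, -1.15 with first-numbered libraries only, and -0.82 to -0.43 with 1 animal left out. Tnfrsf12a, the receptor of TWEAK, differed by -1.68 (SE 0.35, limma adjusted p = 0.0932). It had 29.7, 39.4 and 36.5 TPM in PT-S1 sham and 77.7, 58.7, 119 and 64.7 TPM in PT-S1 UNx, and 86.8 to 160 TPM in CCD sham and 64.1 to 107 TPM in CCD UNx. The PT-S1 groups did not overlap. Clu, clusterin, a secreted chaperone, differed by -1.55 (SE 0.37, limma adjusted p = 0.125). Its change was -0.99 in CCD and 0.56 in PT-S1, with 918, 591, 869 and 719 TPM in CCD sham and 275, 505 and 406 TPM in CCD UNx, against at most 3.27 TPM in PT-S1. The remaining 3 were S100a6 (-1.17), S100a11 (-0.77) and Anxa2, annexin A2 (-0.73). The median stayed negative after all 3 changes of scaling (-0.80, -0.88 and -0.88).

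All 7 tested mitochondrially encoded genes lay below 0, with a median of -0.65 against 0.13 over all genes. At an unadjusted p under 0.05, 2 were below, against 3.44% of all genes. mt-Nd1, a subunit of complex I, differed by -0.90 (limma adjusted p = 0.215) and mt-Nd2 by -1.11 (limma adjusted p = 0.234). PT-S1 sham had 7238, 10203 and 13220 TPM of mt-Nd1 and PT-S1 UNx 12490 to 23997 TPM, and the groups overlapped. The share of TPM on mitochondrial genes was 2.37 to 9.40% over PT-S1 libraries and 1.24 to 2.81% over CCD libraries, and its part in the result was not tested. Nuclear-encoded respiratory subunits had a median of -0.17. Against 12% above and 3.44% below over all genes, 0 were above and 3 below of 76. That count was 27 below after centring (median -0.33) and 24 below with first-numbered libraries only (median -0.65). Over all genes, 1015 of 10988 were below after centring and 333 of 11071 with first-numbered libraries only. Without the first-numbered library of every animal the list's median was 0.06 with 0 below.

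Proteasome subunits had a median of -0.18. Of 31, 0 were above and 8 below at an unadjusted p under 0.05, against 12% and 3.44% of all genes. The sizes were small, from -0.47 for Psma3 (limma adjusted p = 0.226) to -0.32 for Psma4 among the 8. Without the PT-S1 libraries of low correlation 1 member was above and 1 below, while 13 were below after median-ratio scaling and 16 after centring. Over all genes, 1980 were above and 309 below of 10945 without those libraries. After median-ratio scaling 929 of 10946 were below, and after centring 1015 of 10988. In the fit with all libraries, of the 30 NRF2 and glutathione genes 0 were above and 5 below, against 12% and 3.44% of all genes, with a median of -0.19. Mgst1, a microsomal glutathione transferase, differed by -1.97 (SE 0.67, limma adjusted p = 0.221), and its PT-S1 UNx animals had 335, 278, 1393 and 167 TPM, where animal 3 lay far above the rest. Nqo1, a quinone reductase, differed by -1.27 (limma adjusted p = 0.243), with the same animal highest (130 TPM against 32 to 70.9 TPM).

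Cytosolic chaperones had a median of -0.09 over 21 members, against 0.13 over all genes. Against 12% above and 3.44% below over all genes, 0 were above and 3 below at an unadjusted p under 0.05. Hsp90ab1 (-0.94, limma adjusted p = 0.109) and Hsp90aa1 (-1.12, limma adjusted p = 0.112), the cytosolic HSP90 isoforms, were among these. Hsp90ab1 had 512, 497 and 732 TPM in PT-S1 sham, 692 to 926 TPM in PT-S1 UNx, 1168 to 1523 TPM in CCD sham and 976 to 1116 TPM in CCD UNx. The CCD groups did not overlap. The unfolded protein list of the endoplasmic reticulum had a median of -0.15. Manf (-1.02, limma adjusted p = 0.169) and Creld2 (-1.02, limma adjusted p = 0.191), both induced by unfolded protein, were the 2 of 20 below 0 at an unadjusted p under 0.05. None was above 0 at that threshold, against 12% above and 3.44% below over all genes.

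**Figure D4:**
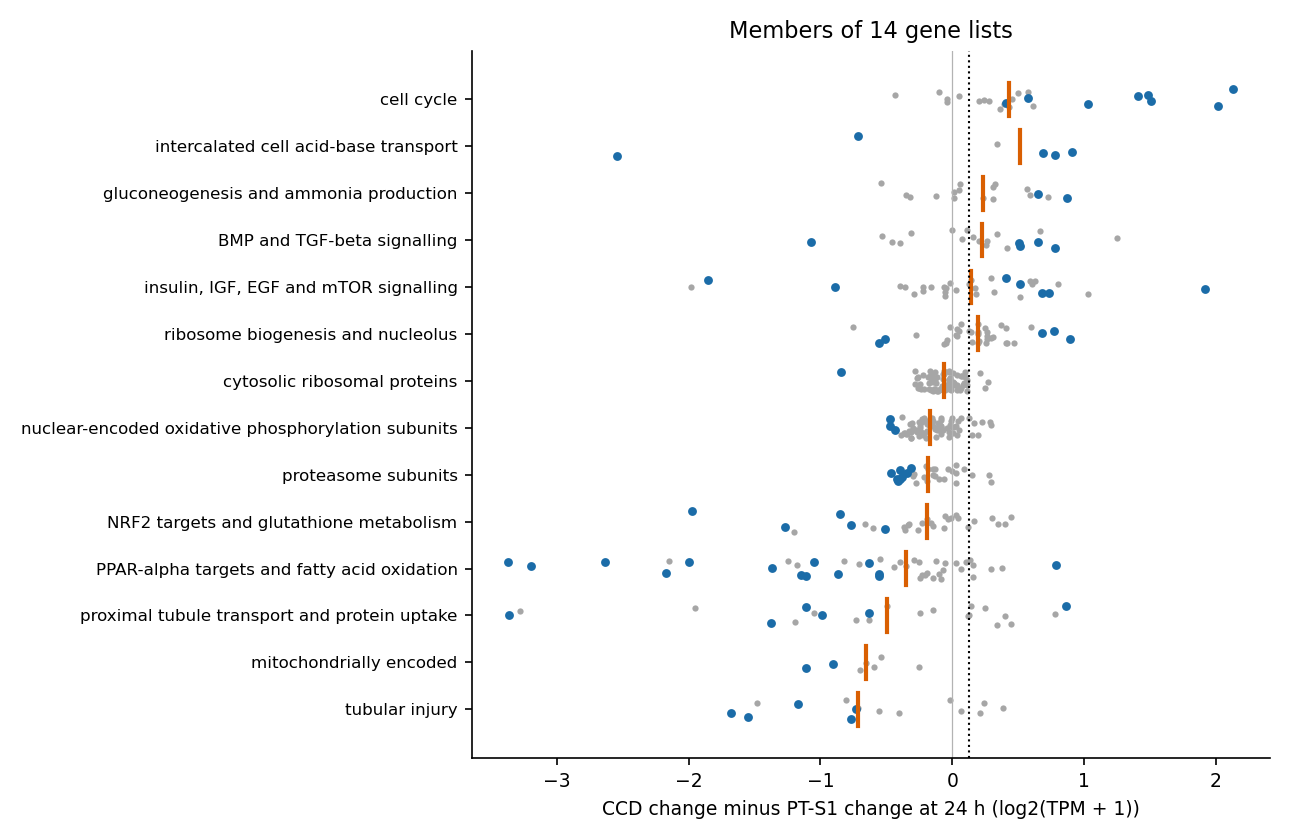
CCD change minus PT-S1 change at 24 h on the x axis, in log2(TPM + 1), of the tested members of 14 gene lists (rows); larger blue points have an unadjusted p under 0.05, orange bars are list medians, and the dotted line is the median of 0.13 over all genes tested. The cell cycle list reaches 2.13 (Birc5) with 0 such members below 0, and the tubular injury median lies at -0.71.

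Signalling lists were mixed. In the insulin, IGF, EGF and mTOR list, 5 members were above and 2 below of 33 at an unadjusted p under 0.05, against 12% and 3.44% of all genes. Its median of 0.14 was close to that of all genes. Below 0 were Kitl, described above, and Insr, the insulin receptor (-0.89, SE 0.23, limma adjusted p = 0.14), with 42.5, 44.7, 46.1 and 42.9 TPM in CCD sham, 19.5, 27.6 and 28.4 TPM in CCD UNx and overlapping PT-S1 groups. Above 0 were Spry1, a feedback inhibitor of receptor tyrosine kinases (1.92), Tsc2, an inhibitor of mTORC1 (0.73), Erbb2 (0.68), Akt2 (0.51) and Foxo1 (0.41), with limma adjusted p values of 0.16 to 0.321. Of the 20 BMP and TGF-beta genes 4 were above and 1 below, but 1 above and 3 below after quantile normalization, median-ratio scaling or centring. Over all genes, 816 were above and 768 below after quantile normalization, 744 and 929 after median-ratio scaling, and 533 and 1015 after centring. In the fit with all libraries the members above 0 included the inhibitory Smad7 (0.78, limma adjusted p = 0.198) and Smad1 (0.52, limma adjusted p = 0.269). The medians of the insulin list and of the glucocorticoid list turned sign under centring (-0.02 and -0.03) and under median-ratio scaling (-0.04 and -0.02).

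Segment transport genes could be tested only where both tables held 1 TPM. Of the list of intercalated cell acid-base genes 6 were tested, 3 above and 2 below at an unadjusted p under 0.05, against 12% and 3.44% of all genes. These 6 were present in PT-S1 too, so their counts do not describe intercalated cells alone. Car4, a membrane carbonic anhydrase, differed by -2.54 (SE 0.56, limma adjusted p = 0.105), with 104, 71.9 and 130 TPM in PT-S1 sham, 186 to 381 TPM in PT-S1 UNx, 3.32 to 19.6 TPM in CCD sham and 2.29 to 4.22 TPM in CCD UNx. The change of Car4 was 1.34 in PT-S1 and -1.20 in CCD, at mean levels of 213 and 10.6 TPM. The chloride-bicarbonate exchangers Slc4a2 (0.91, limma adjusted p = 0.165) and Slc26a4 (0.78) were above 0, and Slc26a4 had only 1.91 TPM in PT-S1. Proximal transport genes had a median of -0.50 with 1 above and 5 below of 23, against 12% and 3.44% of all genes. The median turned to 0.14, with 1 above and 1 below of 9, at a mean of at least 5 TPM, and ran from -0.73 to -0.20 with 1 animal left out. Dab2, an adaptor of protein uptake, was the 1 above (0.86, limma adjusted p = 0.24). Aqp3, the basolateral water channel, differed by 0.63 (SE 0.35, limma adjusted p = 0.397), and Slc5a2 by 0.40 and Slc34a1, the sodium-phosphate transporter, by -0.24 (limma adjusted p = 0.709 and 0.858). The levels of the last pair in CCD were at most 36.8 TPM.

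Cytosolic ribosomal proteins had small differences that lay mostly below those of all genes, with a median of -0.06 over 78 against 0.13, and 3 of the 78 above that 0.13. At an unadjusted p under 0.05, 0 were above 0 and 1 below, against 12% and 3.44% of all genes. The median was 0.23 without the first-numbered library of every animal. With first-numbered libraries only it was -0.65 with 17 below, against 333 of 11071 over all genes. The 1 below 0 with all libraries was Rps25 (-0.85, limma adjusted p = 0.159), with 396 to 442 TPM in CCD sham and 226, 242 and 293 TPM in CCD UNx, a gene with processed copies. Of 37 ribosome biogenesis genes 3 were above and 2 below, with Ncl, nucleolin (0.77, limma adjusted p = 0.189), above and Nop10, a box H/ACA protein (-0.56, limma adjusted p = 0.218), below. Of 26 ATF4 targets and tRNA synthetases 3 were above and 1 below. Nars, asparaginyl-tRNA synthetase (0.74, SE 0.17, limma adjusted p = 0.122), had PT-S1 animals of 95.8, 70.5 and 73 TPM in sham and 62 to 68.4 TPM in UNx, CCD sham 84.4 to 108 TPM and CCD UNx 125 to 138 TPM, with no overlap in either segment. Immediate early genes (16) and clock genes (8 and 5) had 0 members on either side.

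The rest of the lists had few members on either side at an unadjusted p under 0.05. Their counts stand against 12% above and 3.44% below over all genes. Interferon genes had 2 above (Stat2 at 0.81) and 4 below (B2m at -0.81) of 28, and gluconeogenesis and ammonia genes 2 above of 17, Glud1 (0.65) and Ogdh (0.87). Sterol synthesis had 2 above (Srebf1 at 0.75) and 1 below (Msmo1 at -0.72) of 29. It had 2 above and 6 below after quantile normalization and 1 above and 5 below after median-ratio scaling or centring. Over all genes, 816 were above and 768 below of 10988 after quantile normalization, and 744 and 929 of 10946 after median-ratio scaling. After centring 533 were above and 1015 below of 10988. Hypoxia targets had 2 above of 15 in the fit with all libraries, a share close to the 12% over all genes. They were Egln1, a prolyl hydroxylase (1.95, limma adjusted p = 0.129), and Kdm3a (0.61). In Egln1 the first-numbered CCD UNx libraries stood apart at 26.3 to 32.5 TPM against 4.5 to 6.32 TPM, and its difference was 0.95 without them. Glucocorticoid targets had 2 above of 16 (Mt2 at 1.52, Nr3c1 at 0.47), p53 targets 0 above and 1 below of 14 (Phlda3 at -1.28), glycolysis 0 above and 1 below of 16 (Eno1 at -0.64), and chemokines 0 above and 1 below of 10 (Nfkbia at -0.68).

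At 72 h, in other animals, 0 of 11035 genes (0%) differed between segments at an adjusted p under 0.05 (limma, smallest adjusted p 0.179), and 1030 (9.33%) did so at an unadjusted p under 0.05. Stmn1 had the smallest p there and differed by 1.77. Tk1 differed by 1.18 (limma unadjusted p = 0.0399), Fads2 by 0.87, Gpsm2 by 0.98, Birc5 by 0.34, Wbp11 by 0.35 and Zdhhc1 by 0.39. Of the genes in which the first-numbered CCD UNx libraries stood apart at 24 h, the 72 h differences were Nfix -0.04, Ranbp9 -0.06, Zfp777 0.01, Irf2bp2 -0.63 and Kitl 0.05. Khdrbs3 differed by 0.45, and Vaultrc5 was not tested at 72 h.

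The cell cycle list had a median of 0.66 at 72 h, with 7 members above 0 and 0 below of 23 at an unadjusted p under 0.05. Over all genes the 72 h median was 0.30, and 9.33% passed that threshold, a share that was not split by direction. At the same threshold, fatty acid oxidation had 2 above and 0 below of 42 (median 0.11), and interferon genes 13 above and 0 below of 28 (median 0.90). The test of the 24 h against the 72 h difference called 0 of 10689 genes (0%) at an adjusted p under 0.05 (limma, smallest adjusted p 1.00), with 324 (3.03%) at an unadjusted p under 0.05. A change of these differences between times was thus not shown for any gene.

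**Figure D5:**
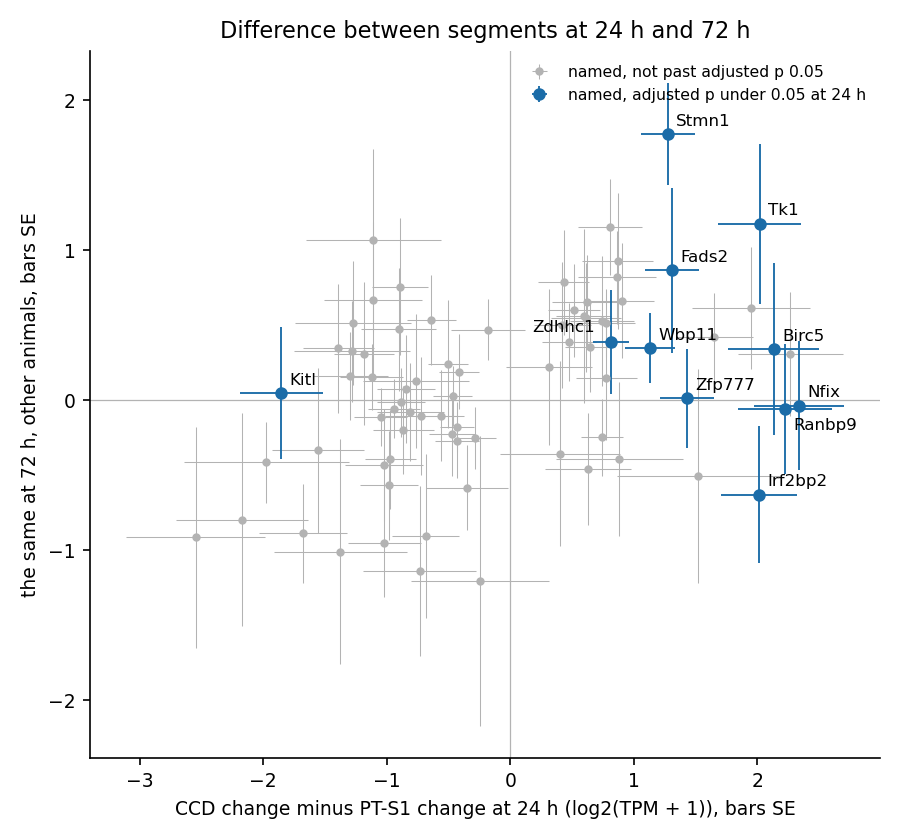
CCD change minus PT-S1 change of 77 named genes at 24 h on the x axis and at 72 h on the y axis, both in log2(TPM + 1), with SE bars. The blue points are the named genes with an adjusted p under 0.05 at 24 h that were tested at both times; Stmn1 (1.27 and 1.77) and Tk1 (2.02 and 1.18) are high at both, and Nfix (2.34 and -0.04) and Kitl (-1.85 and 0.05) lie near 0 at 72 h.

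The count of 15 rested on single animals. With each of the 14 segment animals left out in turn it ran from 0 to 163. It was 0 without PT-S1 UNx animal 1 or 2, CCD sham animal 1 or 3, or CCD UNx animal 1 or 2, and 163 without PT-S1 sham animal 3, which holds 1 of the libraries of low correlation. Without both libraries of low correlation 179 genes passed, 164 above and 15 below 0, all 15 genes among them. The differences of all 15 kept their sign in the 34 alternative settings that gave them a value, Tk1 between 1.37 and 2.30 and Stmn1 between 0.55 and 1.74.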

How the data were processed

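Gene expression was measured by RNA-seq of dissected tubules, with libraries made with SMART-Seq V4 per the labels' protocols. The authors deposited TPM values per gene and library, 1 table per segment and time. Per the submitters' processing notes, STAR, RSEM 1.3.3 and the mouse build GRCm39 were used, and the annotation release is not given in the sources used here. Tables were normalized separately. Of the table columns, 47 matched 1 sample and 22 a group and animal.

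From these, log2(TPM + 1) was averaged over the libraries of an animal, and genes averaging at least 1 TPM in both tables were kept. A 4-group model over 14 animals was fitted with limma 3.58.1 in R 4.3.3 (moderated test with mean-variance trend, two-sided), and the difference of both changes was tested with Benjamini-Hochberg adjustment over all genes. Levels in the text are animal means transformed back to TPM, and differences on this scale understate those of low genes. The fit was tested on simulated data. Whether animals with the same number in both segments are the same mouse is not stated, so p-values measure the spread between these samples, which may be technical in part.

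Named genes were up to 12 per direction, past the threshold or of smallest p, with at least 10 TPM in 1 group, the 2 members of smallest p in each of 28 lists, the 4 opposite genes of smallest p per direction, and segment markers. Results of a few genes are not reported here. Members and lists were chosen with earlier results of these data known. Alternatives covered scaling, pseudocount, filter, treatment of libraries, variance model, replicate block and leaving out animals or libraries.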

Additional observations from a re-analysis of the deposited data

Results flagged for a closer look

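For groups of 4 independent values chance flags about 1 in 20, but the 78 named genes share their animals, so that share is no test here. Groups of 3 animals were not examined. In 13 of 156 groups of 4 animals (8.33%), over these genes, 1 animal lay far from the others. PT-S1 UNx animal 3 accounted for 6: Slc5a2 was at 789 TPM (others 2230 to 2510), Slc34a1 at 5210 TPM (7360 to 7630), Mgst1 at 1390 TPM (167 to 335), Nop10 at 238 TPM (173 to 184), Per2 at 9.54 TPM (4.92 to 5.47) and Srebf1 at 16.5 TPM (11.4 to 12.1). In CCD sham, animal 4 stood apart in Dab2 at 225 TPM (196 to 200), Hsp90aa1 at 253 TPM (320 to 329), Per3 at 5.56 TPM (2.88 to 3.03) and Vaultrc5 at 1.47 TPM (others listed at 0). CCD sham animal 2 was low in H2-T23 at 50.1 TPM (52.6 to 53.1) and Icam1 at 11 TPM (19.7 to 21.4), and animal 1 was high in Tmem176a at 324 TPM (284 to 286).

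The CCD response differed from the PT-S1 response, by limma's test of the difference itself, in 15 genes. In 7 of them the first-numbered CCD UNx libraries stood apart: Vaultrc5 (3.86), Khdrbs3 (2.93), Nfix (2.34), Ranbp9 (2.23), Irf2bp2 (2.01), Zfp777 (1.43) and Kitl (-1.85). In the other 8 they did not: Birc5 (2.13), Tk1 (2.02), Gpsm2 (1.39), Fads2 (1.31), Stmn1 (1.27), Wbp11 (1.13), Zdhhc1 (0.82) and 1700030C10Rik (-1.62).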

How the results depend on the processing

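The count of 15 genes became 24 with quantile normalization, 0 with the responses centred on the segment median (limma, smallest adjusted p 0.0512, 1548 genes at an unadjusted p under 0.05), 25 with a pseudocount of 5, 43 when genes above 0 TPM in at least 3 animals were kept, 9 at a mean of at least 5 TPM, 53 with every library as a replicate or with the animal as a random effect, 1468 with arrayWeights, 27 with a variance for each segment and 179 without the PT-S1 libraries of low correlation. Leaving out 1 animal gave 0 to 163. The cause was not tested. Of 3 settings chosen after seeing the data, leaving out the first-numbered library of every animal gave 0 (limma, smallest adjusted p 0.144, 1098 genes at an unadjusted p under 0.05), while leaving out that of each CCD UNx animal gave 15 and the first-numbered libraries alone 14, with 7 of the 15 genes shared in either. A replicate block within segments gave 13 genes (6 above and 7 below 0, 5 shared) and a replicate block across segments 20 (10 and 10, 9 shared). The labels do not say that same-numbered animals are pairs, so the main fit did not pair them. Deviations of same-numbered animals from their group means correlated at -0.199 to 0.24 within segments and -0.222 to 0.146 across. With 6 pairs of each kind, these correlations cannot show whether the numbers mark pairs. Among named genes the sign turned for Jund (-0.31) and Icam1 (0.00104) with first-numbered libraries only. Clock turned to 0.0747 without the first-numbered CCD UNx libraries and to 0.00521 with first-numbered libraries only, and ran from -0.34 to 0.0126 with 1 animal left out. Slc34a1 turned to 0.0694 under either replicate block and ran from -0.61 to 0.23 with 1 animal left out. None of these passed the threshold. TPM keeps no depth, so the counting error of low genes is unknown.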
